A study of Arabidopsis thaliana with 9 samples.

Results

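The shoot apical meristem of Arabidopsis thaliana after 3 long days was compared with the meristem after 1 long day, across every locus with reads. The comparison used 6 of the 9 libraries of the series, namely 3 libraries after 3 long days (LD3 A, B and C) and 3 after 1 long day (LD1 A, B and C). They were chosen by the labelled number of long days alone, and all plants were of the accession Col-0. Plants in short days had 8 h of light and 16 h of darkness, and long days had 16 h of light and 8 h of darkness. In both groups the meristems had been cut out by laser microdissection, their RNA was amplified, and cDNA was primed with random primers. Libraries A and B were made by whole-transcriptome shotgun preparation and C as a ready-to-run library, so the fit held a term for the preparation. The other 3 libraries, from plants before the first long day, were not compared but entered the fit. They helped to set the spread between libraries, the preparation term, the scaling and the filter on low counts. A gene could thus be tested through their reads, and 9300 genes were tested, against 7434 with the 6 libraries alone. The labels do not say whether the letters stand for separate pools of plants, and the sources used here name neither the age of the plants nor the hour of harvest. The p-values are thus measured against a spread between libraries that may be technical alone.

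The meristem is the dome of stem cells that makes leaves until a signal turns it to making flowers. In long days the leaf protein FT moves to the apex, where it acts with the bZIP protein FD and raises MADS-box genes such as SOC1 and FUL, and later the floral meristem genes LFY and AP1. Members of the SPL family act in parallel as the age of the plant permits, while FLC, SVP and TFL1 hold the process back. The question of the comparison is what differs between the meristem soon after the inductive light regime begins and the meristem a few days into it, before flower primordia form.

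The libraries differed widely in depth, from 102019 to 11145220 assigned reads, and LD3 C alone held more reads than the other 5 together. A total of 3 reads, taken as the detection limit of a library, stood for 19.8, 5.03 and 6.68 CPM in LD1 A, B and C and for 23.4, 2.08 and 0.337 CPM in LD3 A, B and C. These limits cover counting error only, because amplified reads without molecular tags are not independent molecules. CPM is the normalised read count of edgeR, in which every library is brought to the same size by the trimmed mean of M values (TMM). Correlations of log2 CPM were no higher between libraries of the same time point (median r of 0.498 over 6 pairs) than between LD1 and LD3 (0.569 over 9 pairs). LD1 B stood apart by seed and pollen transcripts, which took 4.88% and 1.31% of its reads. LD1 C stood apart by mitochondrial transcripts, at 2.76% of its reads. Marker lists of other tissues are given with the lists they touch, and whether they played a part in those differences was not tested.

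No gene of 9300 tested passed an adjusted p of 0.05 in edgeR's quasi-likelihood test, that is 0% of those tested. The smallest adjusted p was 0.166, for FTM1, and the next was 0.973. Without adjustment, p lay under 0.05 for 146 genes that were higher in LD3, 1.57% of those tested, and for 233 lower ones, 2.51%. Together these 379 genes were fewer than the 465.0 that an error rate of 0.05 allows among 9300 tests. All 3 letters moved the same way in 128 of the 146 and in 103 of the 233. The CPM of every LD3 library lay above that of every LD1 library for 670 genes, 7.20% of those tested, and below it for 182 genes, 1.96%. In all, 4921 log2 fold changes (LD3 minus LD1) were positive and 4379 negative, with a median of 0.08. The median differences of log2 CPM within the letters were 0.05, 0.07 and 0.54 for A, B and C. Within letters A and C, LD1 and LD3 also differed in the version of BLASTN that matched reads to loci. The part of the version in any difference was not tested. The spread that set these p-values was large, with a biological coefficient of variation of 0.898 and a median standard error (SE) of 1.23 on the log2 scale. The fit itself gives no SE. Each SE here is the absolute log2 fold change divided by the square root of the F statistic of the test. It is an approximate guide only, and least reliable where a group had few or no reads.

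Other tools called a few genes. DESeq2 called 6 genes at an adjusted p of 0.05, 2 of them higher in LD3, and limma-voom called 25, of which 1 was higher, and only 2 genes were called by both. Genes at an unadjusted p under 0.05 were higher in LD3 in 38.5% of cases under TMM scaling, in 27.8% under relative log expression (RLE) scaling and in 58.0% under upper-quartile scaling. The median log2 fold change of all genes moved with the scaling from 0.08 to -0.11 and 0.33, so medians of gene lists are also given relative to it below. In the authors' deposited table of the same comparison, 1835 of 21100 loci had a p under 0.05, of which 742 were higher and 1093 lower, and none passed 0.05 after adjustment here. The sign of the fold change in the authors' deposited table was the same as in the fit for 90.8% of 9253 genes. Reads appeared in LD3 alone at 3763 loci and in LD1 alone at 1775 loci, with the deeper sequencing of LD3 beside them, and 5765 loci had reads in all 6 libraries. Because no gene passed, differences are described below as higher or lower, and p-values are unadjusted edgeR values unless stated.

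**Figure D1:**
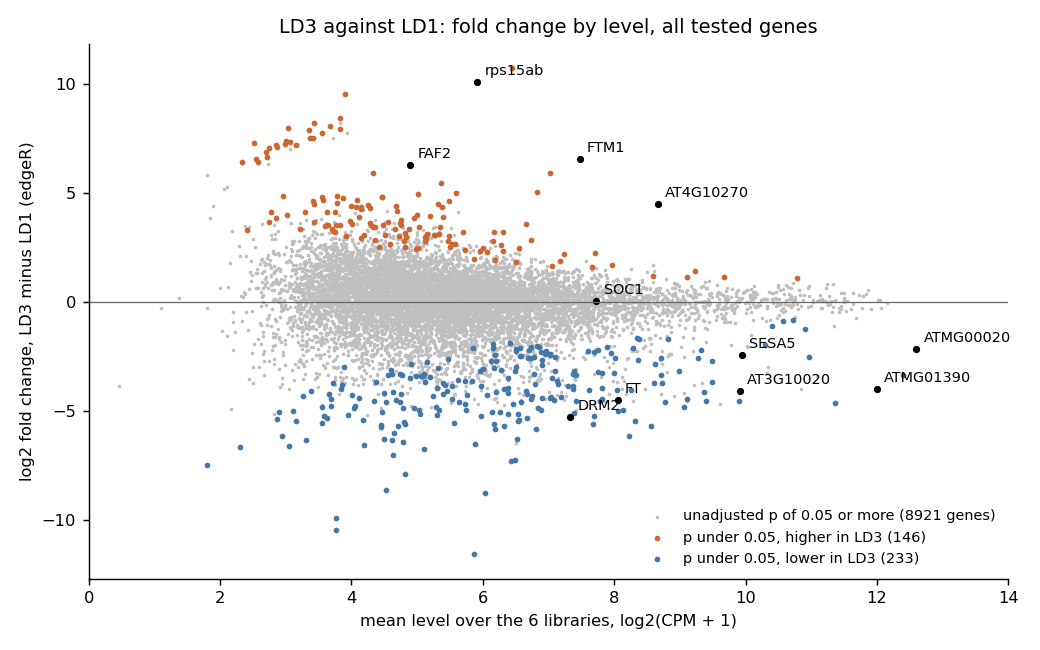
Log2 fold change of LD3 minus LD1 (vertical axis, edgeR) against the mean level over the 6 libraries (horizontal axis, log2 of CPM + 1) for the 9300 tested genes. Grey points had an unadjusted p of 0.05 or more, orange points were higher and blue points lower in LD3 at a p under 0.05, and black points are genes named in the text. FTM1 lies far above the other genes of its level, and no point passed 0.05 after adjustment over all genes.

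FTM1 (AT1G43800), which belongs to the desaturases of stearic acid bound to acyl carrier protein (stearoyl-ACP), had the smallest p of all. It had 1, 1 and 2 reads in LD1 A, B and C and 52, 327 and 3708 reads in LD3 A, B and C. On the CPM scale that was 6.59, 1.68 and 4.45 in LD1 and 406, 227 and 417 in LD3. The 3 LD3 libraries were alike and all lay far above the LD1 libraries, each of which was under the detection limit. The log2 fold change was 6.57 (SE 0.93, unadjusted p 1.79e-05). Across the other settings it ranged from 6.06 to 7.04, and the adjusted p ranged from 5.26e-05 to 1.0, under 0.05 in 3 of 21 settings. In the authors' deposited table the log2 fold change was 6.60 with an unadjusted p of 0.000774. FTM1 was one of the 2 genes called by both DESeq2 and limma-voom.

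Enzymes of this family put the first double bond into stearic acid while it is bound to acyl carrier protein in the plastid. Of its 7 members 6 had reads and 3 were tested, FTM1 among them. SSI2, the main stearoyl-ACP desaturase of leaves, had 217, 26.8 and 13.4 CPM in LD1 and 46.8, 99.1 and 13.3 CPM in LD3, with a log2 fold change of -0.52 (SE 0.94). The relative AT3G02630 had 119, 26.8 and 20.03 CPM against 0, 24.9 and 7.64 CPM, with a log2 fold change of -1.94 (SE 1.20). In both genes the LD1 and LD3 libraries overlapped, the others had too few reads to be compared, and FTM1 was the only 1 of the 3 tested members with a p under 0.05.

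In each direction 12 genes were chosen by smallest p among those without overlap, so their separation was set by that rule. Of the 12 genes higher in LD3, AT4G10270, annotated as a wound-responsive family protein, had the highest mean CPM in LD3. Its level was 52.7, 53.6 and 13.4 CPM in LD1 A, B and C and 382, 315 and 1613 CPM in LD3. Every LD3 library was above every LD1 library, and LD3 C was the highest. The log2 fold change was 4.51 (SE 1.22, p 0.0033). RGTB2, a beta subunit of the transferase that attaches lipid anchors to Rab GTPases of vesicle traffic, had 13.2, 13.4 and 8.9 CPM in LD1 and 85.8, 56.8 and 422 CPM in LD3. Its log2 fold change was 3.59 (SE 1.11), and the groups did not overlap.

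Several of the genes with the smallest p were at or near 0 in LD1. FAF2, of a plant family that regulates the size of the shoot meristem, had 0, 0 and 1 reads in LD1 and 6, 19 and 984 reads in LD3. The ratio of its pooled reads, per total reads of each group and without TMM factors, was 125. Its counting interval of 22.3 to 4930 was made wide by the single LD1 read, and LD3 C weighs most in the ratio. FQR1, a flavodoxin-like quinone reductase induced early by auxin, had 0, 1 and 5 reads in LD1 and 2, 214 and 770 reads in LD3, with a log2 fold change of 4.63 (SE 1.52). Every LD3 library again lay above LD1, although LD3 A held only 2 reads.

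The plastid thioredoxin gene ATHM3 had no read in LD1 and 4, 19 and 235 reads in LD3 A, B and C. Against 3 reads over the group, the limit set on pooled LD1 counts, its pooled reads were at least 10.6-fold higher in LD3. Such bounds, here and below, weigh the deep library LD3 C most. The gene rps15ab, which encodes a ribosomal protein of the S15A type, also had no read in LD1 and 1, 16 and 2992 reads in LD3, at least 124-fold higher. Nearly all of those reads came from LD3 C, and LD3 A held 1. AT3G03010, a peptidyl-tRNA hydrolase that frees transfer RNA from stalled peptides, had 0 reads in LD1 and 1, 26 and 515 in LD3, at least 22.3-fold higher. AT2G46250, a protein resembling myosin heavy chains, had 0 reads in LD1 and 1, 23 and 312 in LD3, at least 13.8-fold higher. In each of these genes the group difference therefore rests on LD1 counts that were under the detection limit.

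The remaining genes of the 12 with the smallest p were AT2G44770, AT3G48490 and AT2G10931. AT2G44770, with an ELMO/CED-12 domain, had 0, 1.68 and 0 CPM in LD1 and 23.4, 33.3 and 17.9 CPM in LD3. Its LD3 libraries were close to each other and all above LD1, which held 1 read in total. The uncharacterized gene AT3G48490 had 0, 3.35 and 4.45 CPM against 31.2, 18.7 and 97.8 CPM. AT2G10931, also uncharacterized, had 0, 1.68 and 0 CPM against 15.6, 10.4 and 213 CPM, and LD3 C was the high library in both.

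Among genes lower in LD3 without overlap, the nuclear gene with the smallest p was DRM2 (AT2G33830). It belongs to the dormancy and auxin-associated family and is not the DNA methyltransferase of that name. Its level was 718, 58.7 and 162 CPM in LD1 A, B and C and 7.8, 8.31 and 4.5 CPM in LD3. All LD3 libraries were under 10 CPM and all LD1 libraries above 50 CPM. The log2 fold change was -5.27 (SE 1.30, p 0.00178). AT3G10020, annotated only as a plant protein, had 1363, 3787 and 385 CPM in LD1 and 46.8, 72 and 115 CPM in LD3, with a log2 fold change of -4.08 (SE 1.02, p 0.00195). DESeq2 called both DRM2 and AT3G10020.

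**Figure D2:**
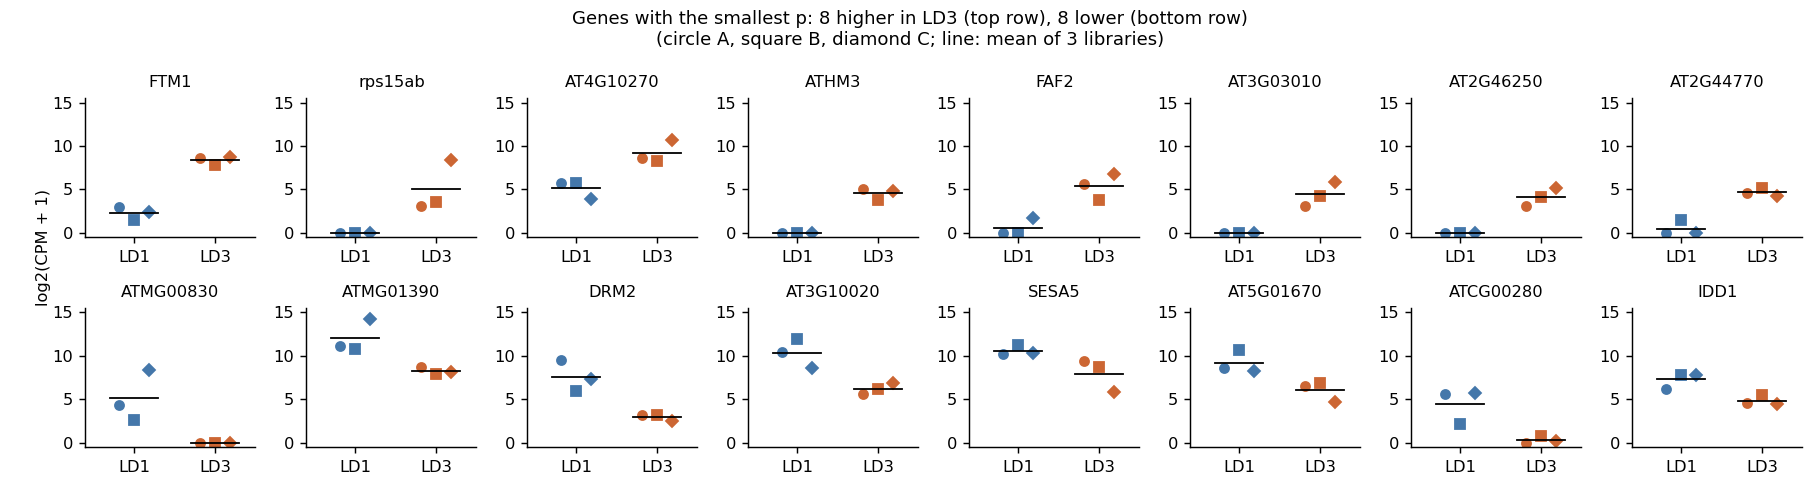
Level in each library (vertical axis, log2 of CPM + 1) of 16 genes without overlap between the groups. The top row holds the 8 with the smallest p among such genes higher in LD3, and the bottom row the 8 among those lower. Circles, squares and diamonds are libraries A, B and C, blue for LD1 and orange for LD3, and the line is the mean of 3 libraries. FTM1 sits between 1.68 and 6.59 CPM in LD1 and between 227 and 417 CPM in LD3, and the groups do not overlap in any of the 16 genes because the rule that chose them asked for that.

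AT5G01670, AT3G05260 and RPE, which are among the 12 lower genes, encode metabolic enzymes. AT5G01670, an oxidoreductase that uses NAD(P), had 395, 1606 and 292 CPM in LD1 and 93.6, 111 and 25.2 CPM in LD3. AT3G05260, another NAD(P)-binding enzyme, had 125, 461 and 608 CPM in LD1 and 15.6, 63.7 and 17.5 CPM in LD3. RPE, an epimerase of the Calvin cycle and the pentose phosphate pathway, had 52.7, 339 and 223 CPM in LD1 and 23.4, 29.1 and 42.2 CPM in LD3. Their log2 fold changes were -3.35, -3.20 and -2.65, with SE of 1.01, 1.03 and 0.88 in the same order. None of the 3 overlapped between the groups, as the rule that chose them required.

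Lower in LD3 were also a pair of regulators. IDD1, a zinc finger protein of the INDETERMINATE DOMAIN family, had 72.5, 225 and 227 CPM in LD1 and 23.4, 42.3 and 21 CPM in LD3, with a log2 fold change of -2.57 (SE 0.81, p 0.00819). S1P, a protease that frees membrane-bound transcription factors in the Golgi, had 125, 68.7 and 71.2 CPM in LD1 and 7.8, 13.9 and 1.35 CPM in LD3, with a log2 fold change of -3.60 (SE 1.16). In both genes the LD3 libraries all lay below those of LD1, as the rule that chose them required. SESA5, a seed storage albumin, and the organelle loci ATMG00830, ATMG01390 and ATCG00280 also belong to the 12 with the smallest p and are described with their lists.

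The other floral promoters did not pass an unadjusted p of 0.05, and their errors leave room for large differences in either direction. SOC1, the MADS-box integrator of flowering signals, had 329, 209.6 and 97.9 CPM in LD1 A, B and C and 234, 209 and 186 CPM in LD3. The LD3 libraries lay within the range of LD1, and the log2 fold change was 0.06 (SE 0.74). FD, the bZIP partner of FT, had 520.4, 233 and 327 CPM in LD1 and 624, 276 and 204 CPM in LD3, with a log2 fold change of -0.13 (SE 0.66). AGL24, which works with SOC1, had 52.7, 73.8 and 55.6 CPM in LD1 and 148, 72.7 and 112 CPM in LD3. LD3 A and C were above LD1 but LD3 B was not, and the log2 fold change was 0.84 (SE 0.71). FLOR1, a leucine-rich repeat protein, had 501, 290.0 and 64.6 CPM in LD1 and 554, 339 and 336 CPM in LD3, with a log2 fold change of 0.70 (SE 0.69).

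Of the 29 floral promoters on the list, 13 were tested, 8 with a positive and 5 with a negative log2 fold change, and their median was 0.17, against 0.08 over all genes. Only FTM1 among them had a p under 0.05. FT, the mobile signal made in leaf veins, had 232, 12 and 0 reads in LD1 A, B and C and 1, 2 and 249 in LD3. Its reads lay almost wholly in LD1 A and LD3 C, and the log2 fold change of -4.48 had an SE of 2.76. GI, a clock-associated gene upstream of FT, had 65.9, 20.1 and 216 CPM in LD1 and 54.6, 18 and 1.91 CPM in LD3, with a log2 fold change of -1.73 (SE 1.46). FUL, a MADS-box gene that acts with SOC1, was not tested for want of reads and had 0, 3 and 0 reads in LD1 and 3, 21 and 54 in LD3. Each LD3 library held some FUL reads whereas LD1 A and C held none, and every LD3 library lay above every LD1 library in CPM. Mean CPM was 1.68 in LD1 and 14.7 in LD3. The ratio of pooled reads per total reads, which LD3 C dominates, was 3.21 with a counting interval of 1.06 to 15.9.

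**Figure D3:**
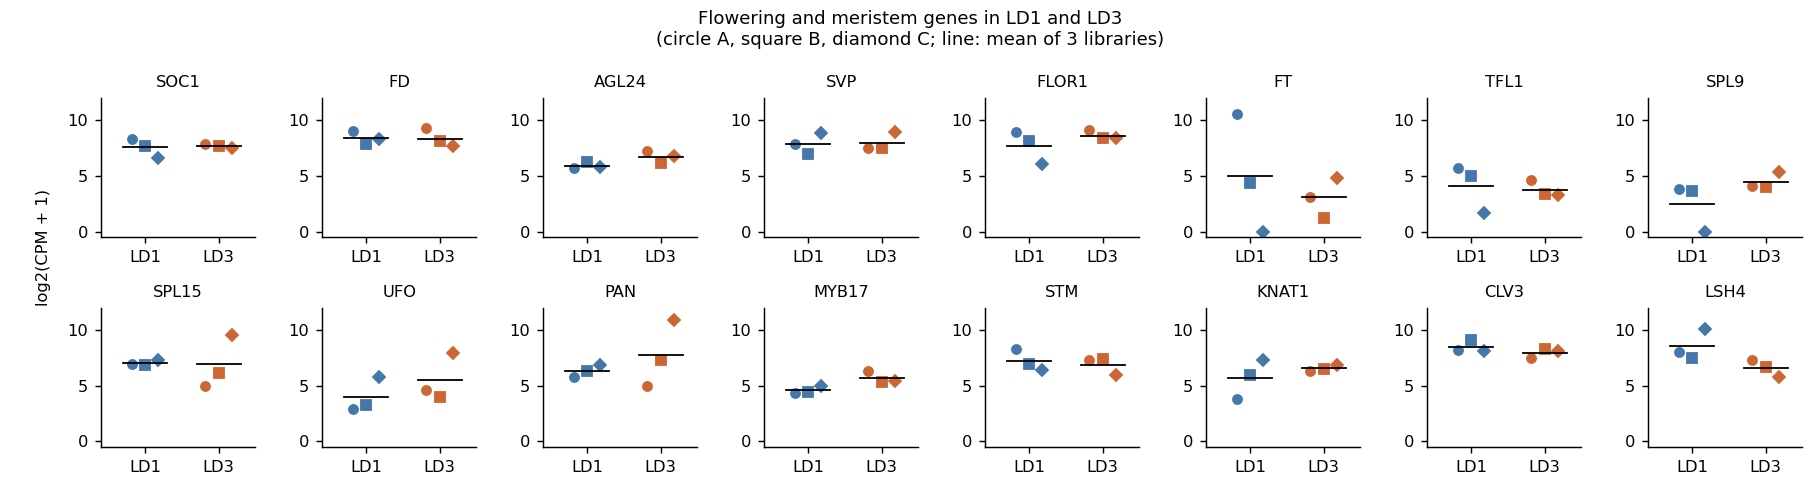
Level in each library (vertical axis, log2 of CPM + 1) of 16 genes of flowering and of the meristem. Circles, squares and diamonds are libraries A, B and C, blue for LD1 and orange for LD3, and the line is the mean of 3 libraries. SOC1, FD and SVP overlap between the groups, while MYB17 and SPL9 lie higher and LSH4 lower in every LD3 library than in LD1.

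Among the SPL genes, which bind squamosa promoters and whose messages microRNA156 represses in young plants, 6 of 16 were tested and 5 had a positive log2 fold change. SPL9 had 13.2, 11.7 and 0 CPM in LD1 and 15.6, 15.2 and 39.7 CPM in LD3, so the groups did not overlap, with LD1 C at 0. The log2 fold change was 1.59 (SE 1.48). SPL15 had 125, 117 and 158 CPM in LD1 and 31.2, 72 and 776 CPM in LD3, where LD3 C was above and LD3 A and B below every LD1 library. Its log2 fold change of 0.17 (SE 0.91) thus stands between opposite values of the letters. The small SPL genes were near the detection limit. SPL4 had 0 reads in LD1 and 5, 7 and 2 reads in LD3, SPL3 had 0 and 0, 0 and 5, and SPL5 had 0, 0 and 1 and 0, 0 and 10. The median of the 6 tested genes was 0.24, and it was below that of all genes without LD1 A, LD1 B, LD1 C or LD3 C.

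Floral repressors were mostly at negative values, none with a p under 0.05. SVP, a MADS-box repressor, had 231, 127 and 469.7 CPM in LD1 and 179, 177 and 489.7 CPM in LD3, with a log2 fold change of 0.02 (SE 0.58). TFL1, which keeps the center of the meristem vegetative, had 52.7, 30.2 and 2.23 CPM in LD1 and 23.4, 9.7 and 8.77 CPM in LD3, with a log2 fold change of -1.26 (SE 1.60). FLC, the repressor removed by cold, had no read in LD1 and 0, 5 and 6 reads in LD3. Of 7 tested repressors 1 had a positive and 6 a negative log2 fold change, with a median of -0.55. AGL31, a relative of FLC, had 19.8, 18.4 and 797 CPM in LD1 and 7.8, 15.2 and 94.4 CPM in LD3, with a log2 fold change of -1.48 (SE 0.89), and LD1 C was far above the other libraries. AGL18 had 79, 191 and 82.4 CPM against 15.6, 31.9 and 100.7 CPM and TOE2 had 19.8, 15.1 and 0 CPM against 7.8, 13.2 and 0.675 CPM, both with overlapping groups. With 1 read column per library the median of the list relative to all genes was 0.01, against -0.63 in the main setting.

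Genes of floral meristem and organ identity had few reads, and the 3 of 19 members that could be tested all had positive log2 fold changes. UFO, an F-box partner of LFY, had 6.59, 8.38 and 55.6 CPM in LD1 and 23.4, 14.5 and 249 CPM in LD3, with a log2 fold change of 1.58 (SE 0.99). Within each letter LD3 was above LD1, although LD1 C was above LD3 A and B. PAN, a bZIP protein that sets the number of floral organs, had 52.7, 78.8 and 116 CPM in LD1 and 31.2, 159 and 1882 CPM in LD3, with a log2 fold change of 1.70 (SE 0.86). LD3 C was the highest by far and LD3 A was below all of LD1. MYB17, which acts together with LFY, had 19.8, 20.1 and 31.2 CPM in LD1 and 78, 40.2 and 42.2 CPM in LD3, and here the groups did not overlap, with a log2 fold change of 1.20 (SE 0.98). LFY itself had no read in 5 libraries and 45 in LD3 C, and AP1 had 0, 15 and 0 reads in LD1 and 0, 3 and 0 in LD3. AGL42, a relative of SOC1, had 0, 24 and 0 reads in LD1 and 0, 1 and 32 in LD3, too few in most libraries to be compared.

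Among genes that keep the meristem, STM, KNAT1, PNY and CLV3 had reads in every library. STM, the KNOX protein that prevents differentiation, had 316, 122 and 86.8 CPM in LD1 and 156, 171 and 60.6 CPM in LD3, with a log2 fold change of -0.45 (SE 0.78). KNAT1, a second KNOX gene, had 13.2, 60.4 and 156 CPM in LD1 and 78, 90.1 and 116 CPM in LD3, with a log2 fold change of 0.47 (SE 0.89). The BELL partner PNY had 105, 10.1 and 2.23 CPM in LD1 and 78, 50.6 and 28 CPM in LD3. Its libraries overlapped, as did those of all 9 tested KNOX and BELL genes, 4 of them positive and 5 negative. BLH8, KNAT2 and BLH7 had log2 fold changes of -0.94, -0.90 and 1.14, with SE of 1.09, 1.11 and 1.23.

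The stem cell peptide CLV3 had 289.8, 560.0 and 280.5 CPM in LD1 and 179, 326 and 278 CPM in LD3, with a log2 fold change of -0.54 (SE 0.57). WUS, the homeobox gene of the organizing center, had 0, 2 and 0 reads in LD1 and 0, 9 and 1 in LD3 and was not tested. SYD, a chromatin remodeler that acts on WUS, had 6.59, 30.2 and 46.7 CPM in LD1 and 78, 64.4 and 71.6 CPM in LD3. All LD3 libraries of SYD were above those of LD1, with a log2 fold change of 1.39 (SE 0.89). CRN, a membrane kinase-like partner in CLV3 perception, had 6.59, 36.9 and 4.45 CPM against 46.8, 12.5 and 66 CPM, and POL, a phosphatase downstream of it, had 85.6, 106 and 49 CPM against 39, 102 and 22.1 CPM. Of the 11 tested genes of the pathway 8 were positive and 3 negative, and the median relative to all genes went from 0.43 to -0.50 in libraries A and B alone. The summed level of 8 shoot meristem markers overlapped between the groups, at 744, 858 and 792 CPM in LD1 and 484, 717 and 859 CPM in LD3.

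At organ boundaries the related genes LSH4 and LSH3, both expressed where organs separate from the meristem, differed in direction. LSH4 had 263, 181 and 1099.6 CPM in LD1 and 164, 105 and 55 CPM in LD3, lower in every LD3 library, with a log2 fold change of -2.09 (SE 0.91, p 0.0405). LSH3 had 6.59, 3.35 and 13.4 CPM in LD1 and 31.2, 17.3 and 26 CPM in LD3, higher in every LD3 library, with a log2 fold change of 1.87 (SE 1.14, p 0.128). The difference between the genes was not tested. ESR1, which promotes shoot formation, had 1, 1 and 0 reads in LD1 and 1, 28 and 94 in LD3, also without overlap in CPM. That separation rests on 1 read in LD1 A (6.59 CPM) against 1 read in LD3 A (7.80 CPM). AIL6, an AINTEGUMENTA-like gene of young primordia, had 13.2, 15.1 and 134 CPM in LD1 and 15.6, 6.23 and 6.3 CPM in LD3, with LD1 C far above the rest. The list counted 4 positive and 6 negative of 10 tested genes, and its median relative to all genes changed from -0.51 to 0.68 without LD1 A and to 0.49 without LD1 C.

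Most genes of leaf polarity and growth overlapped between the groups, as did 90.8% of all tested genes. Among the HD-ZIP III proteins, which set the upper side of organs, and their LITTLE ZIPPER inhibitors, 1 of 7 tested genes was positive, with a median of -0.47. REV had 79, 16.8 and 60.1 CPM in LD1 and 23.4, 35.3 and 50.9 CPM in LD3, PHV had 19.8, 8.38 and 2.23 CPM against 7.8, 9.01 and 123 CPM, and the inhibitors ZPR1 and ZPR4 had log2 fold changes of -0.85 and -0.82 (SE 1.35 and 1.28). FIL, a YABBY gene of the lower side, had 204, 97.2 and 4.45 CPM in LD1 and 70.2, 68.6 and 51.6 CPM in LD3. The auxin response factors ETT and ARF4 had log2 fold changes of -0.75 and 0.72 (SE 0.86 and 1.44), and all 4 tested genes of the lower side overlapped between the groups. GIF2, a coactivator of the GROWTH-REGULATING FACTORS, had 250.3, 63.7 and 160.3 CPM in LD1 and 7.8, 27.7 and 50.9 CPM in LD3. It was lower in every LD3 library, with a log2 fold change of -2.46 (SE 0.90, p 0.0194). The factors themselves overlapped, with GRF1 at -1.09 (SE 1.28), GRF3 at -0.47 (SE 0.78) and GRF9 at 1.06 (SE 1.27) on the log2 scale.

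The largest functional group, the proteins of the cytosolic ribosome, lay close to the background. Of 182 tested genes of the small (40S) and large (60S) subunits 107 were positive and 75 negative, with a median of 0.10 against 0.08 over all genes, of which 52.9% were positive. Genes for the 40S subunit took 6.55, 3.69 and 5.29% of LD1 A, B and C reads, against 6.74, 6.97 and 6.76% in LD3. Every LD3 library was thus above every LD1 library, by an exact two-sided permutation test with p = 0.1, the smallest that 3 libraries against 3 allow. Every list without overlap gives this same p. Because the lists were chosen with earlier results of these data known, it only restates the separation here and below. Genes for the 60S subunit took 11.3, 6.83 and 13.3% in LD1 and 11.7, 12.3 and 14.5% in LD3, with overlap. LD1 B had the lowest share in both, and without it the median of all cytosolic genes relative to the background was -0.39. Only 3 of the 182 had a p under 0.05, all higher and all of the 60S subunit, close to the 1.57% of all tested genes that were higher.

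AT2G43460, a gene for the L38e protein, had 454, 570.0 and 2175 CPM in LD1 and 803, 1311 and 5207 CPM in LD3, with a log2 fold change of 1.13 (SE 0.42, p 0.0215). LD3 was above LD1 within each letter, though LD1 C was above LD3 A and B. AT3G58700, of the L5P family, had 204, 93.9 and 49 CPM in LD1 and 367, 289 and 484 CPM in LD3 without overlap, with a log2 fold change of 1.72 (SE 0.72). AT1G15250, a zinc-binding ribosomal protein gene, had 32.9, 93.9 and 24.5 CPM in LD1 and 164, 126 and 453 CPM in LD3, also without overlap, with a log2 fold change of 2.197 (SE 0.87). On the small subunit, AT3G53890 (S21e) and AT3G04920 (S24e) had log2 fold changes of 0.89 and 0.80, while AT2G04390 (S17) and AT1G23410 (S27a) had -1.18 and -1.69, with SE from 0.46 to 1.02. Many ribosomal proteins are encoded by near-identical copies, among which the counting could have split reads, so single members are uncertain.

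Ribosomal proteins of plastids and mitochondria that are encoded in the nucleus stood further from the background. Of 23 tested genes 18 were positive and 5 negative, with a median of 0.69. Within letters A, B and C the median differences were 0.24, 0.53 and 1.69, against 0.05, 0.07 and 0.54 over all genes, so letter C was the largest. These genes took 0.165, 0.0877 and 0.117% of the reads in LD1 and 0.183, 0.183 and 0.308% in LD3, without overlap (exact permutation p = 0.1). The median relative to all genes was 0.61 in the main setting and ranged from 0.22, in libraries A and B alone, to 1.04 in the other settings. EMB3137, of the S13 and S18 family, had 92.2, 127 and 57.9 CPM in LD1 and 187, 219.6 and 520.2 CPM in LD3. PSRP4, a protein found only in plastid ribosomes, had 39.5, 75.4 and 42.3 CPM in LD1 and 109, 92.1 and 397 CPM in LD3. Both were higher in every LD3 library, with log2 fold changes of 1.48 (SE 0.76) and 1.35 (SE 0.82). The mitochondrial RPS14 had 46.1, 52 and 82.4 CPM against 62.4, 113 and 246 CPM with overlap, and no member had a p under 0.05.

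For translation factors and genes of ribosome assembly no difference from the ribosomal proteins was tested. Of 51 tested translation factors 20 were positive and 31 negative, with a median of -0.12. A p under 0.05 was found for 2 of the 51, both lower, against 2.51% of all tested genes that were lower. AT1G07920, an elongation factor of the Tu type and one of several near-identical copies, had 1759, 2119 and 4004 CPM in LD1 and 1489.7, 1579 and 543 CPM in LD3. It was lower in every LD3 library, with a log2 fold change of -1.22 (SE 0.53, p 0.0424). AT5G54940, an initiation factor of the SUI1 family, had 151, 788 and 0 CPM against 39, 37.4 and 2.02 CPM and overlapped, with LD1 B far above the rest. Among 33 tested genes of nucleolar ribosome assembly 13 were positive and 20 negative. AT1G63810, a nucleolar protein, had 151, 92.2 and 125 CPM in LD1 and 70.2, 66.5 and 15.1 CPM in LD3, lower in every LD3 library, with a log2 fold change of -1.58 (SE 0.80). AT2G37990, a regulator of ribosome assembly, had 112, 122 and 327 CPM against 312, 245 and 605 CPM, with a log2 fold change of 1.08 (SE 0.63).

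Cell division genes lay near the background as a group, with single genes above it. Of 39 tested histone genes 25 were positive and 14 negative, and their median was 0.14. AT5G10400, a histone gene with near-identical copies, had 487, 542 and 443 CPM in LD1 and 881, 1016 and 1496 CPM in LD3, with no overlap and a log2 fold change of 1.18 (SE 0.43, p 0.019). Histones together took 2.9, 1.81 and 1.86% of the reads in LD1 and 3.56, 2.94 and 2.18% in LD3, higher in LD3 within each letter but with overlap between letters. Without LD1 B the median of the list relative to all genes was -0.24.

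Of 28 tested genes of DNA replication 17 were positive and 11 negative, with a median of 0.21, and none had a p under 0.05. CDT1A, which licenses replication origins, had 6.59, 11.7 and 6.68 CPM in LD1 and 31.2, 30.5 and 26.2 CPM in LD3. RPA2, of the complex that coats single-stranded DNA, had 46.1, 48.6 and 35.6 CPM in LD1 and 93.6, 75.5 and 191 CPM in LD3. Neither overlapped between the groups, with log2 fold changes of 1.77 (SE 1.05) and 1.35 (SE 0.78). RFC2, of the clamp loader, went the other way with 178, 26.8 and 465 CPM against 62.4, 71.3 and 95.4 CPM, LD1 A and C being high.

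Cyclins, their kinases and kinase subunits counted 13 positive and 12 negative of 25 tested. Yet they took 0.263, 0.196 and 0.26% of the reads in LD1 A, B and C and 0.3, 0.285 and 0.283% in LD3, without overlap (exact permutation p = 0.1). CYCD5;1, a D-type cyclin, had 6.59, 21.8 and 127 CPM in LD1 and 7.8, 4.16 and 2.7 CPM in LD3, with a log2 fold change of -3.44 (SE 1.70). The kinase subunit gene CKS2 had 204, 269.9 and 55.6 CPM against 265, 304 and 315 CPM, with a log2 fold change of 0.92 (SE 0.66). KINESIN-12B, a motor of the dividing cell plate, had 19.8, 25.1 and 26.7 CPM in LD1 and 46.8, 47.1 and 122 CPM in LD3, higher in every LD3 library, with a log2 fold change of 1.45 (SE 0.89). The tubulin gene TUB3 had 454, 360.4 and 401 CPM in LD1 and 679, 641 and 496 CPM in LD3, without overlap but at a log2 fold change of only 0.56 (SE 0.46).

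The share of reads separated LD1 from LD3 without overlap in 11 of the 57 lists, 19.3% of them, 7 with LD3 above and 4 with LD3 below, and a single such list is read against that count. Among the hormone pathways brassinosteroid and gibberellin lists were of this kind. Brassinosteroid genes took 0.0466, 0.0384 and 0.0406% of the reads in LD1 A, B and C and 0.0667, 0.0706 and 0.0675% in LD3, close within each group and without overlap (exact permutation p = 0.1). Of 12 tested genes 9 were positive and 3 negative, with a median of 0.44. DWF5, an enzyme of sterol synthesis, had 65.9, 41.9 and 33.4 CPM in LD1 and 85.8, 114 and 79.4 CPM in LD3 without overlap, with a log2 fold change of 1.01 (SE 0.78). The transcription factors BZR1 and BES1 had log2 fold changes of 1.42 and 1.602 (SE 1.21 and 1.47), and the kinase BIN2, which inhibits them, had 0.61 (SE 0.78), all with overlap. No member had a p under 0.05, and without LD3 B the median relative to all genes was -0.22.

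Gibberellin genes took 0.0619, 0.0633 and 0.0367% of the reads in LD1 and 0.107, 0.0728 and 0.0736% in LD3, again without overlap, although only 6 of 13 tested genes were positive. Their median relative to all genes was -0.51 and ranged from -0.54 to 1.23 in the other settings. It was 0.63 with the 6 libraries alone. The negative gene GASA2 had 1 read in LD1 C and 0 in the other LD1 and LD3 libraries. GASA4, a gibberellin-regulated peptide of the meristem, had 198, 158 and 154 CPM in LD1 and 460.2, 252 and 355 CPM in LD3, higher in every LD3 library, with a log2 fold change of 1.07 (SE 0.68). AT5G14920, of the same peptide family, had 19.8, 28.5 and 26.7 CPM in LD1 and 39, 51.3 and 124 CPM in LD3, also without overlap. The synthesis gene GA20OX2 had 6.59, 30.2 and 231 CPM against 15.6, 20.8 and 10.2 CPM, with LD1 C far above the rest and a log2 fold change of -1.34 (SE 1.32). The DELLA repressors RGL1 and GAI had log2 fold changes of -0.55 and 1.36 (SE 1.32 and 1.24).

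Cytokinin genes were split 11 to 11. IPT2, which modifies transfer RNA, had 0, 6.71 and 6.68 CPM in LD1 and 23.4, 13.2 and 156 CPM in LD3, higher in every LD3 library, with a log2 fold change of 3.14 (SE 1.33, p 0.0371). The response factor CRF11 had 1, 3 and 0 reads in LD1 and 4, 21 and 337 in LD3 (p 0.0611), and CRF2 had 2, 19 and 166 and 1, 19 and 10 (p 0.0672). Neither overlapped in CPM, CRF11 being higher and CRF2 lower in LD3, and the difference between them was not tested. For CRF2 the gap was only 13.17 CPM in LD1 A, from 2 reads, against 13.16 CPM in LD3 B. LOG7, which activates cytokinin in the last step of its synthesis, had 26.3, 18.4 and 6.68 CPM against 0, 7.62 and 3.93 CPM.

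Auxin genes counted 17 positive and 19 negative of 36 tested. AXR1, an enzyme of the pathway that degrades auxin repressors, had 19.8, 33.5 and 86.8 CPM in LD1 and 62.4, 79 and 578 CPM in LD3, with a log2 fold change of 1.88 (SE 0.77, p 0.0312) and overlap through LD1 C. IAA27, such a repressor, had 6.59, 8.38 and 2.23 CPM in LD1 and 31.2, 41.6 and 13.2 CPM in LD3 without overlap, with a log2 fold change of 2.35 (SE 1.08). A pair of GH3 genes, which conjugate auxin or jasmonate to amino acids, had negative values. DFL1 had 0, 37 and 236 reads in LD1 and 0, 7 and 111 in LD3, and GH3.3 had 43, 556 and 0 and 10, 78 and 0, with log2 fold changes of -4.21 (SE 1.62) and -3.25 (SE 1.30). GH3.3 was most abundant in LD1 B and DFL1 in LD1 C.

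Clock genes had a negative median of -0.72 over 21 tested, 9 positive and 12 negative, with extremes in both directions. The medians of the differences within letters A, B and C were 0.23, 0.22 and -0.89, so letter C alone was negative. LNK1, a morning coactivator, had no read in LD1 and 2, 20 and 229 reads in LD3, at least 10.3-fold higher. GRP7, a clock-controlled RNA-binding protein, had 2562, 2112 and 1088 CPM in LD1 and 1419.5, 1490.0 and 422 CPM in LD3, with a log2 fold change of -0.88 (SE 0.39, p 0.0465). Within each letter LD3 was below LD1, while LD1 C lay below LD3 A and B. PRR7, a repressor of the morning clock genes, had 98.8, 28.5 and 49 CPM in LD1 and 0, 9.7 and 19.3 CPM in LD3, lower in every LD3 library, with a log2 fold change of -2.33 (SE 1.44). BOA, a component of the evening complex, had 32.9, 119 and 4.45 CPM against 7.8, 14.5 and 1.8 CPM. The median relative to all genes lay between -1.56 and -0.39 in the other settings, and a difference in the hour of harvest was not tested.

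Nuclear photosynthesis genes were near the background, with 27 positive and 20 negative of 47 tested and a median of 0.07. LHCA1, a light-harvesting protein of photosystem I, had 408, 26.8 and 639 CPM in LD1 and 7.8, 83.1 and 123 CPM in LD3, with a log2 fold change of -2.21 (SE 1.00, p 0.0485). PSAL and PSBW, subunits of photosystems I and II, had 119, 73.8 and 154 CPM against 226, 227 and 257 CPM and 72.5, 55.3 and 49 CPM against 117, 213 and 128 CPM, both higher in every LD3 library. The 8 leaf mesophyll markers, all with reads, summed to 922, 481 and 1300.0 CPM in LD1 and to 803, 566 and 127 CPM in LD3, so LD3 C held the least.

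**Figure D4:**
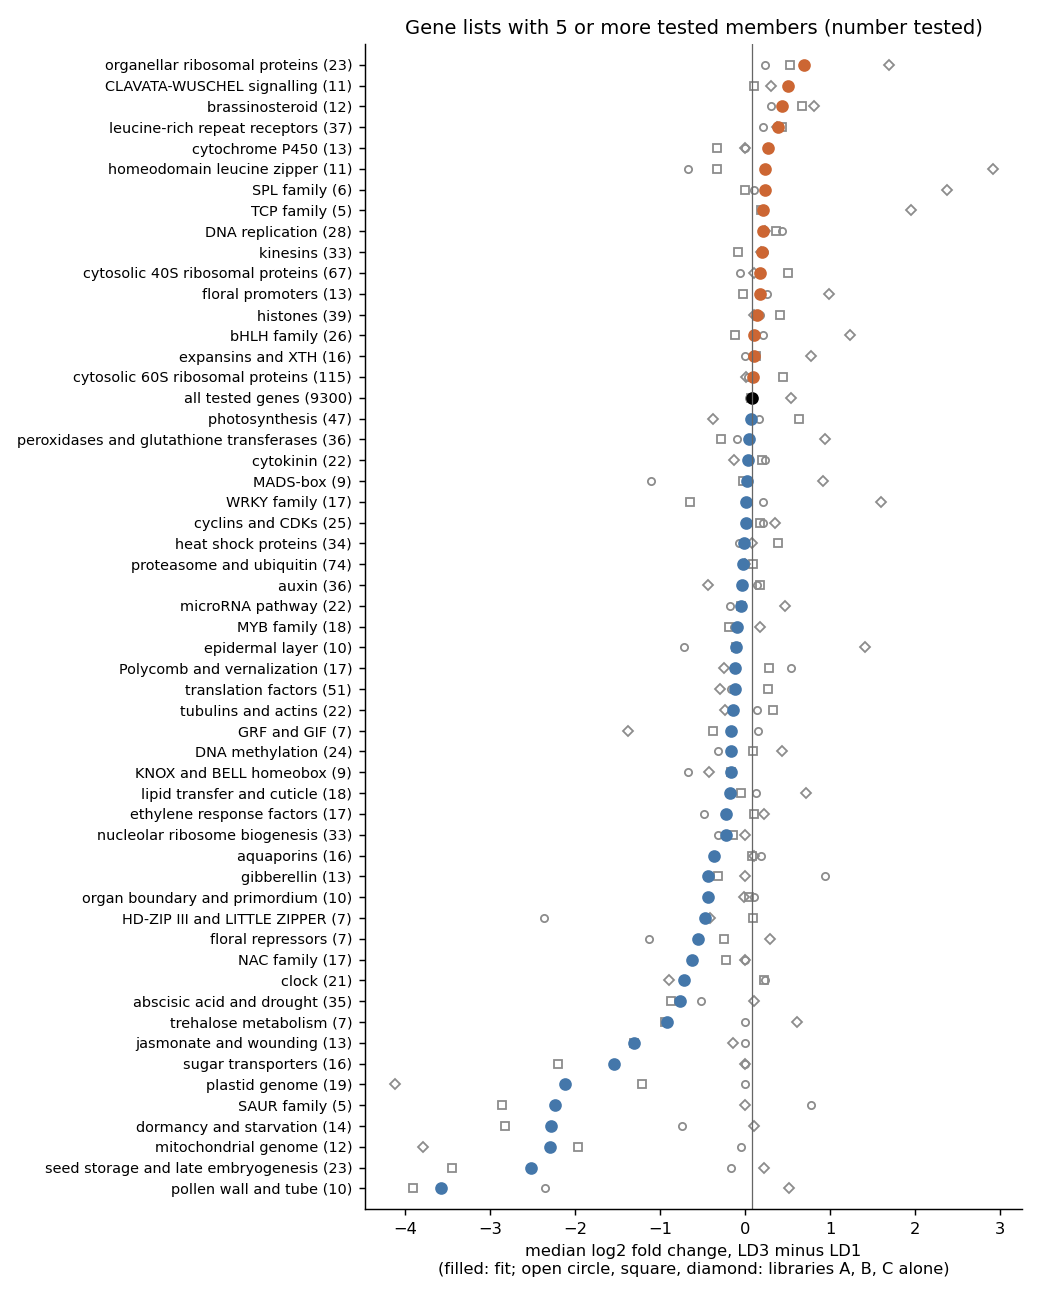
Median log2 fold change of LD3 minus LD1 (horizontal axis) for each gene list with 5 or more tested members, ordered by the median, with the number of tested genes in brackets. Filled points are medians of the fit (orange above and blue below the median of all 9300 tested genes, black), and open circles, squares and diamonds are medians of the differences within libraries A, B and C. Pollen, seed, mitochondrial and dormancy lists lie at the bottom and organellar ribosomal proteins at the top, and the letters spread widely in most lists.

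Genes of dormancy and carbon starvation were mostly lower in LD3. They took 0.157, 0.254 and 0.0684% of the reads in LD1 A, B and C and 0.0333, 0.0467 and 0.0317% in LD3, without overlap (exact permutation p = 0.1). Of 14 tested genes 2 were positive and 12 negative, with a median of -2.28. A p under 0.05 was found for 4 of the 14, all lower, against 2.51% of all tested genes that were lower. Within letters A, B and C the median differences were -0.74, -2.82 and 0.11, negative in A and B only. DRM2, given above, had the smallest p of them. DIN10, a dark-induced raffinose synthase, had 85.6, 168 and 327 CPM in LD1 and 23.4, 17.3 and 117 CPM in LD3, with a log2 fold change of -2.27 (SE 0.89, p 0.0261). ASN1, an asparagine synthase induced by darkness and low sugar, had 158, 188 and 0 CPM in LD1 and 7.8, 15.9 and 0 CPM in LD3, with a log2 fold change of -3.86 (SE 1.71, p 0.0443). DRM1, a marker of dormant buds, had 19.8, 446 and 0 CPM in LD1 and 0, 24.9 and 2.92 CPM in LD3, high in LD1 B alone. Without LD1 B the median of the list relative to all genes was -0.39, against -2.36 with it.

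Trehalose genes, whose product trehalose-6-phosphate signals sugar supply, took 0.0434, 0.0462 and 0.0462% of the reads in LD1 and 0.0176, 0.0214 and 0.0284% in LD3, again without overlap (exact permutation p = 0.1). TPS1, the synthase with proven activity, had 112, 97.2 and 42.3 CPM in LD1 and 15.6, 54.7 and 87.5 CPM in LD3, with a log2 fold change of -0.92 (SE 0.93). TPS11, a class II member without such activity and responsive to sugar, had 191, 46.9 and 0 CPM in LD1 and 0, 11.1 and 1.35 CPM in LD3, with a log2 fold change of -3.82 (SE 1.72, p 0.0471). TPS7 had 19.8, 50.3 and 572 CPM against 39, 25.6 and 42.5 CPM, with LD1 C far above the rest. Of the 7 tested genes 1 was positive and 6 negative, and without LD1 B the median relative to all genes was 0.36.

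Sugar transporters split by member. STP11, a pollen tube transporter, had 18, 323 and 0 reads in LD1 and 0, 13 and 0 in LD3, with a log2 fold change of -5.81 (SE 2.26). STP4, a monosaccharide transporter of sink tissues, had 0, 0 and 1 reads in LD1 and 0, 3 and 482 in LD3, nearly all of them in LD3 C, and STP2 had reads in LD3 C alone. Of 16 tested genes 5 were positive and 11 negative, and without LD1 B the median relative to all genes was 0.28, against -1.63 with it.

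Loci of the mitochondrial genome had negative log2 fold changes in all 12 tested, of 61 with reads, with a median of -2.29. Of the 12, 6 were lower at a p under 0.05, against 2.51% of all tested genes. Within letters A, B and C the median differences were -0.05, -1.97 and -3.79, so letter A showed hardly any. The 61 loci took 0.587, 0.899 and 2.76% of the reads in LD1 A, B and C and 0.334, 0.218 and 0.237% in LD3, without overlap (exact permutation p = 0.1). The mean share differed by -1.15 percentage points (LD3 minus LD1) over all 6 libraries and by -0.467 in libraries A and B alone, so LD1 C carried much of the size. ATMG01390 had 2167, 1745 and 19689 CPM in LD1 and 413, 236 and 275 CPM in LD3, lower in every LD3 library, with a log2 fold change of -4.003 (SE 0.80, p 0.000372). ATMG00020 had 1963, 7843 and 21752 CPM in LD1 and 1833, 1312 and 2527 CPM in LD3, where LD3 A was close to LD1 A, with a log2 fold change of -2.15 (SE 0.53, p 0.00164). ATMG00830 had 3, 3 and 144 reads in LD1 and none in LD3. Its pooled reads were at least 405-fold lower against 3 reads over the group, a bound set mainly by LD1 C and the deep LD3 C. In letters A and B its LD1 level was 19.8 and 5.03 CPM, against LD3 detection limits of 23.4 and 2.08 CPM. DESeq2 and limma-voom called ATMG01390 as well, and the files do not name the products of these loci.

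Loci of the plastid genome had negative log2 fold changes in 18 of 19 tested, of 85 with reads, with a median of -2.12. Within letters A, B and C the median differences were -0.0, -1.21 and -4.12, so letter A showed none. The shares of the 85 loci were 0.131, 0.139 and 0.31% in LD1 and 0.099, 0.0732 and 0.028% in LD3, without overlap (exact permutation p = 0.1). ATCG00280 had 7, 2 and 24 reads in LD1 and 0, 1 and 1 in LD3, and ATCG00440 had 4, 258 and 220 and 0, 99 and 9, so the shallow LD3 A held no read of either. Their log2 fold changes were -6.55 (SE 2.02) and -4.53 (SE 1.71). The median of the plastid list relative to all genes had -3.86 and -0.36 as its extremes over all settings. The amount of organelle RNA carried into a library and its level in the cells cannot be told apart here, and in bulk meristems in general fewer cells of a type and less RNA per cell cannot be told apart.

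Seed storage and late embryogenesis genes were lower in LD3 mainly through LD1 B. They took 1.08, 4.88 and 0.11% of the reads in LD1 A, B and C and 0.459, 0.53 and 0.0903% in LD3, with overlap. Of 23 tested genes 22 were negative, with a median of -2.52. Without LD1 B the median relative to all genes was -0.08, against -2.60 with it. SESA5 had 1146, 2352 and 1298 CPM in LD1 and 663, 409 and 54 CPM in LD3, lower in every LD3 library, with a log2 fold change of -2.42 (SE 0.71, p 0.00556). RAB18, a dehydrin induced by abscisic acid, had 3972, 25808 and 55.6 CPM in LD1 and 772, 1683 and 112 CPM in LD3 and was highest in LD1 B, with a log2 fold change of -3.35 (SE 1.39). The 12 seed markers, all with reads, summed to 4500, 25000 and 1540 CPM in LD1 and to 2570, 2430 and 783 CPM in LD3.

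Pollen genes had 10 of 10 tested genes negative and a median of -3.57. Their shares were 0.0659, 1.31 and 0.0118% in LD1 and 0.00784, 0.11 and 0.0289% in LD3. AGP6 and AGP11, arabinogalactan proteins of the pollen wall, had 79, 528 and 6.68 CPM against 23.4, 35.3 and 0 CPM and 19.8, 132 and 22.3 CPM against 7.8, 10.4 and 1.12 CPM. PPME1, a pectin methylesterase of the pollen tube, had 1, 130 and 0 reads in LD1 and 0, 20 and 0 in LD3. LD1 B was the highest library in each, and without it the median relative to all genes was -0.53. The 5 pollen markers summed to 441, 11300 and 151 CPM in LD1 and to 62.4, 707 and 134 CPM in LD3.

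Genes of abscisic acid and drought counted 14 positive and 21 negative of 35 tested. Of the 35, 6 were lower at a p under 0.05, against 2.51% of all tested genes. RD20, a caleosin of oil bodies, had 14, 1277 and 0 reads in LD1 and 0, 46 and 0 in LD3, NCED3, the key enzyme of abscisic acid synthesis, had 6, 32 and 0 and 0, 1 and 0, and in both LD1 B held the most. RD21A, a cysteine protease, had 13.2, 495 and 265 CPM in LD1 and 15.6, 46.4 and 6.86 CPM in LD3, with a log2 fold change of -3.78 (SE 1.26). The list took 0.803, 3.07 and 0.233% of the reads in LD1 and 0.375, 0.439 and 0.239% in LD3. Among jasmonate and wounding genes, 4 positive and 9 negative of 13, LOX1, a lipoxygenase, had 125, 518 and 4.45 CPM in LD1 and 0, 5.54 and 3.93 CPM in LD3. Without LD1 B the median of that list relative to all genes changed from -1.39 to 0.40.

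**Figure D5:**
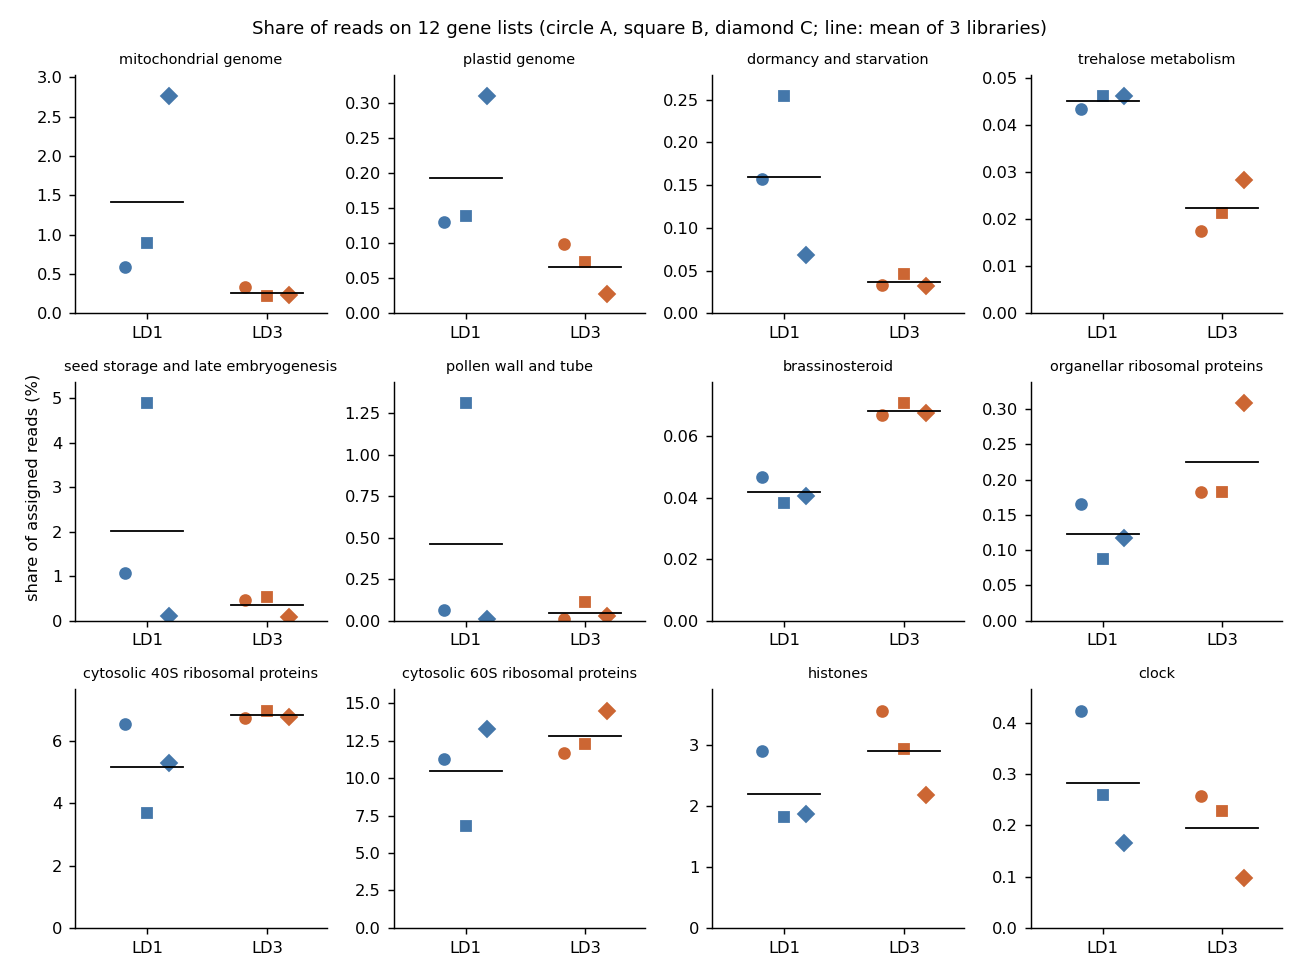
Share of assigned reads on 12 gene lists (vertical axes, percent of the reads of a library, each from 0) in LD1 (blue) and LD3 (orange). Circles, squares and diamonds are libraries A, B and C and the line is the mean of 3 libraries. Mitochondrial, plastid, dormancy and trehalose lists lie lower and brassinosteroid, organellar ribosomal protein and 40S lists higher in every LD3 library, while the seed and pollen lists are set apart by LD1 B.

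Markers of other tissues around the meristem varied by list. The vascular list had reads for 6 of 8 markers and summed to 0, 635 and 35.6 CPM in LD1 and to 15.6, 13.9 and 12 CPM in LD3, with XCP1 at 0 throughout. The trichome and stomata list had reads for 4 of 9 markers and summed to 52.7, 45.3 and 89 CPM in LD1 and to 54.6, 33.9 and 22.3 CPM in LD3, with GL2 and EPF1 at 0. The epidermal list had reads for 4 of 5 markers and overlapped between the groups, at 1250, 884 and 804 CPM in LD1 and 1260, 973 and 905 CPM in LD3. The part of tissue carried along in dissection in the results above was not tested.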

How the data were processed

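RNA sequencing of laser-dissected meristems was analysed from the authors' deposited table of raw read counts per locus. Per the file headers, counts came from BLASTN 2.2.21 or 2.2.13 matches in 16 read columns. Version 2.2.13 was used for LD1 A, LD1 B and LD3 B, and 2.2.21 for LD3 A and LD1 C. LD3 C had a column of each version. LD3 A had a single read column and the rest of LD1 and LD3 a pair each. No genome build, strand of counting or rule for multiply matching reads is named in the headers. The authors' deposited table of the same comparison holds log2 fold changes and p-values. The submitters' processing notes name edgeR.

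The read columns of a library were summed, and empty cells, 49% of the table, were read as 0. Libraries were grouped by their labelled number of long days. The count test was edgeR 4.0.16 (R 4.3.3): quasi-likelihood F test on all 9 libraries with terms for time point and preparation, TMM factors, filterByExpr with a minimum count of 10, and Benjamini-Hochberg adjustment over 9300 genes. It left 5 residual degrees of freedom and was tested on simulated data. DESeq2 1.42.0 and limma 3.58.1 (voom) were alternatives. Within-letter differences are of log2 CPM with a prior count of 2. Pooled ratios use summed reads of a group over its summed total reads, without TMM factors, against 3 reads where a group had none. Setting the 43 tested genes without reads in a group at that bound moved the median of 0 lists. Shares of reads were compared by an exact permutation test.

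Named genes were the 12 per direction with the smallest p among genes of at least 30 reads whose groups did not overlap, up to 4 members per list by p, and a set of flowering genes whatever their result, with some listed members left out here and 1 of the 12 lower genes not reported here. The 57 lists and the members were chosen with earlier results of these data known, by symbol or by the product in the reference annotation, which matched 23073 of 23338 loci. Genes with near-identical copies, overlapping genes and antisense pairs are uncertain.

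LD1 and LD3 libraries of the same letter deviated together from their group means (correlations of 0.166, 0.352 and 0.304 for A, B and C), so the letters were taken to pair the samples. This comes from the data, as the labels give only the letters. Letter C alone was made as a ready-to-run library, so the pairing may be technical. The main test, which has no term for the letters, and the permutation of shares over all 6 libraries do not use this pairing; the fit with the letter as a replicate block is an alternative. Permuting shares within the 3 letters could not give a two-sided exact p under 0.25.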

Additional observations from a re-analysis of the deposited data

How the results depend on the processing

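Genes called at an adjusted p of 0.05 numbered 0 in the main edgeR setting and 6 with DESeq2, 25 with limma-voom and 151 without a filter on low counts (11 higher and 140 lower, 11 with reads in only 1 of the 6 libraries). They were 0 under RLE or upper-quartile scaling, a minimum count of 30, the 6 libraries alone, no preparation term, libraries A and B alone, 1 read column, thinned libraries and each library left out. With the replicate block 0 genes were called, 114 had a p under 0.05 and were higher and 227 lower, so the block changed no call. Genes higher at a p under 0.05, 146 in the main setting, numbered 794 with limma-voom, 242 with upper-quartile scaling, 421 without a filter, 49 at a minimum count of 30, 26 in libraries A and B alone, 65 with 1 read column and 25 in thinned libraries, and from 64 to 442 with 1 library left out. Genes lower, 233 in the main setting, numbered 473 with DESeq2, 811 with limma-voom, 1060 without a filter, 143 at a minimum count of 30, 94 in libraries A and B alone and 88 in thinned libraries, and from 104 to 471 with 1 library left out. Without LD1 B 442 genes were higher and 170 lower, and without LD3 C 64 and 104.

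In libraries A and B alone the median relative to all genes was 0.64 for brassinosteroid and 0.31 for cytosolic ribosomal proteins, and the share of plastid reads differed by -0.0489 percentage points. With 1 library left out it ranged from -0.22 to 0.74 for brassinosteroid, from -2.84 to -0.39 for dormancy, from -3.19 to -0.08 for seed, from -5.37 to -0.53 for pollen and from -0.39 to 0.28 for cytosolic ribosomal proteins. Among the other 50 lists 41 changed sign relative to all genes under some setting. Of 60 named genes with a p under 0.05, 1 changed sign: DRM1 had a log2 fold change of 0.43 without LD1 B, and down to -4.99 with another library left out. These 60 were set apart by p in the same data, which favours a stable sign. Of the 83 tested named genes with a p of 0.05 or more, 18 changed sign under some setting. The cause of these shifts was not tested. Depth limits the 2 shallowest libraries, where 3 reads stand for 19.8 and 23.4 CPM.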

Other observations

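Single genes of other listed families are given here, picked by small p within each list. Of all tested genes, 7.20% had every LD3 library above every LD1 library and 1.96% had it below, so such separation is not particular to these families. CIL2, a basic helix-loop-helix factor, had 0, 10.1 and 0 CPM in LD1 and 46.8, 30.5 and 82 CPM in LD3, higher in every LD3 library, with a log2 fold change of 3.34 (SE 1.41) and an unadjusted edgeR p of 0.0364. ATAF2, a NAC factor, had 0, 4 and 0 reads in LD1 and 1, 36 and 383 in LD3, without overlap in CPM, whereas NAC019, a stress-induced member, had 626, 3251 and 0 CPM against 31.2, 114 and 0.112 CPM and was highest in LD1 B. MSI3, a WD-40 protein of histone-binding complexes, had 32.9, 82.1 and 15.6 CPM in LD1 and 125, 142 and 143 CPM in LD3, higher in every LD3 library, with a log2 fold change of 1.85 (SE 0.83). HST, which exports microRNAs from the nucleus, had 1, 1 and 0 reads in LD1 and 2, 34 and 223 in LD3, again without overlap in CPM. HEN1, which methylates microRNAs, had 26.3, 48.6 and 772 CPM against 7.8, 20.8 and 114 CPM, high in LD1 C.

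At the cell surface CER3, an enzyme of wax synthesis, had 19.8, 10.1 and 4.45 CPM in LD1 and 46.8, 27 and 171 CPM in LD3, higher in every LD3 library, with a log2 fold change of 2.68 (SE 1.14). LTP1, an abundant lipid transfer protein of the epidermis, had 329, 305 and 223 CPM against 523, 323 and 434 CPM. The water channel gene PIP1;4 had 540.1, 547 and 301 CPM in LD1 and 1029.5, 937 and 657 CPM in LD3, without overlap, with a log2 fold change of 0.94 (SE 0.51). MOL1, a leucine-rich repeat kinase of the cambium, had 0, 1 and 0 reads in LD1 and 2, 23 and 38 in LD3. CYP72A13, a cytochrome P450, had 422, 58.7 and 107 CPM in LD1 and 7.8, 11.78 and 0 CPM in LD3, lower in every LD3 library, with a log2 fold change of -5.31 (SE 1.86). PRXR1, a peroxidase, was also lower in every LD3 library, at 678, 865 and 1099.6 CPM against 554, 605 and 191 CPM.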
